A study of Mus musculus with 10 samples.

Results

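The HoxB cluster on mouse chromosome 11 was followed through its promoter contacts in bone marrow cells. The members were Hoxb1, Hoxb2, Hoxb3, Hoxb5, Hoxb6, Hoxb7, Hoxb8, Hoxb9 and Hoxb13. They were chosen by name, and a contact belonged to the cluster when its captured restriction fragment (the bait) held the start or the end of a member. Of the 9 members, 7 had a bait with a listed contact, and Hoxb2 and Hoxb13 had none. The 7 baits carried 72 of the 88624 fragment pairs listed for the progenitor libraries, whose baits numbered 12186, and 11 of the 25622 pairs listed for neutrophils.

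The contacts were measured by promoter-capture Hi-C, in which crosslinked chromatin is cut, joined fragments are recovered, and those that hold a promoter are pulled out with probes. There were 10 libraries in 5 groups of 2 biological replicates, all from C57BL/6 mice. Of these, 8 came from lineage-negative bone marrow cells, a kit-depleted fraction enriched for haematopoietic stem and progenitor cells (HSPCs), and 2 from wild-type (WT) bone marrow neutrophils taken with an isolation kit. The HSPC groups were WT, Npm1c (genotype Npm1flox-cA/+;Mx1-Cre+), Flt3-ITD (genotype Flt3ITD/+), and the double mutant, DM (genotype Npm1flox-cA/+;Flt3ITD/+;Mx1-Cre+). Npm1c is the leukaemia mutation that sends nucleophosmin to the cytoplasm, here from a conditional allele switched on by the interferon-inducible Mx1-Cre. Flt3-ITD is an internal tandem duplication that keeps the receptor Flt3 active. The Cre transgene was thus in the Npm1c and DM mice, and is not named in the genotypes of the WT and Flt3-ITD mice. Each library comes from a mixture of cells, so a change in each cell and a change in the mix of cells cannot be told apart.

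Hox genes encode homeodomain transcription factors that set position along the body axis and are reused in blood formation. Their order along the chromosome follows the order in which they act in the embryo, and neighbouring genes share distant control elements. In blood, HoxB genes are active mainly in stem and early progenitor cells and are switched off as cells mature, and NPM1-mutant leukaemias are known for high HOXA and HOXB activity. Skap1, the next large gene beyond Hoxb1, encodes an adaptor protein of T cell receptor signalling.

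The baits are fragments cut by HindIII, whose site is AAGCTT, and where that site falls decides which promoter a contact belongs to. The RefSeq promoter windows of build GRCm38.p6, from 250 bases before to 50 after a transcription start, hold 2 of the 9 members, Hoxb8 and Hoxb1. They are shown because the site lies within both, a feature of 7.45% of the 32851 windows in the table. Both are on the plus strand, read 5′ to 3′, with the HindIII site in capitals.
Hoxb8, chr11:96281655-96281954: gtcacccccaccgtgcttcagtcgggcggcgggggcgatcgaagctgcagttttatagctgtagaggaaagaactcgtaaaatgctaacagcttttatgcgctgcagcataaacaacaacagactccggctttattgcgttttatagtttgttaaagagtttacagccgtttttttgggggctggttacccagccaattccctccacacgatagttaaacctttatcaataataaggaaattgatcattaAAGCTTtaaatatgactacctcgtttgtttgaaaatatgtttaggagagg
Hoxb1, chr11:96365508-96365807: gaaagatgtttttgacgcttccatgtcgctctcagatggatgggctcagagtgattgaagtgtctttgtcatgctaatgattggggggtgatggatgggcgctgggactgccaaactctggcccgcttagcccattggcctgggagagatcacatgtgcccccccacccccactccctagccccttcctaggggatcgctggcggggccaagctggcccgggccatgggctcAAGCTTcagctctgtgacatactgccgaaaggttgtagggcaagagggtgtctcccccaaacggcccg
In Hoxb8 the site begins at the transcription start itself, position 96281905. That base is the last of one bait, and the next base opens the neighbouring bait. The sequence just before this start is therefore in the first of these baits, chr11:96278714-96281905, and the sequence after it in the second. The gene table gives Hoxb8 an earlier start, at position 96279401 in the first bait, so by that table the gene is split between both baits. In Hoxb1 the fragment opens 17 bases before the start at position 96365758, so most of that window lies outside the bait.

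The baits are named here by the members whose ends they hold, in order along the chromosome. Hoxb9 is one of the posterior genes of the cluster, and its bait, chr11:96268840-96274400, had 14 pairs. The Hoxb8 bait, just described, had 32. The Hoxb8/Hoxb7 bait, chr11:96281906-96290755, holds the end of Hoxb8 and all of Hoxb7 and had 13. The Hoxb6 bait, chr11:96290756-96295371, had 5. Hoxb5 had a bait of its own, chr11:96302318-96304157, with 4 pairs, and shared the bait chr11:96304242-96313143, with 3 pairs, with Hoxb3. Hoxb1, the most anterior gene, had 1 pair at chr11:96365741-96369547. The coordinates are those of build mm10, which the files use.

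Nearly all contacts of the cluster led to 1 gene. Of the 72 pairs, 69 (95.8%) had an other end overlapping Skap1, chr11:96464570-96759622. Skap1 is 295 kb long and begins 96.3 kb beyond the end of Hoxb1. No pair ended in the stretch between the cluster and Skap1. All 80 HSPC pairs that ended in Skap1 came from baits between Hoxb13 and Skap1, and Skap1 itself had no listed bait. Exons and introns were not assigned here, so the fragments are placed by their distance from the Skap1 end that faces the cluster, measured to the fragment's centre.

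The direction of these contacts was also uniform. Toward Skap1, at higher coordinates, went 71 pairs, and 1 went the other way. The median distance was 299 kb, with quartiles of 261 and 330 kb, against a median of 218 kb over all listed pairs within a chromosome. One-sided baits were common in the whole list: of the 2830 baits with at least 10 pairs, 37.8% had all of them on one side.

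The 3 pairs that ended elsewhere were from Hoxb5 and Hoxb8. The Hoxb5 bait contacted the Hoxb8 bait fragment 22.9 kb away, with scores of 5.15 and 5.53 in the DM libraries. DM alone passed 5 in both replicates there, but WT scored 4.45 and 6.33, with a mean (5.39) like that of DM (5.34). The Hoxb5 bait also contacted chr11:96348585-96354229, a fragment that holds Hoxb2. Its DM scores were 5.32 and 5.20, and the other HSPC libraries ranged from 2.40 to 4.41. This was the one listed contact of the Hoxb2 fragment with a member's bait. The Hoxb8 bait reached a fragment beyond Skap1, 576 kb away and next to the Copz2 bait, with scores of 7.72 and 5.50 in the Flt3-ITD libraries. Flt3-ITD alone passed 5 in both replicates there, but the groups overlapped. Npm1c scored 2.96 and 7.03, DM 3.56 and 6.32, and WT 3.06 and 3.96.

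**Figure D1:**
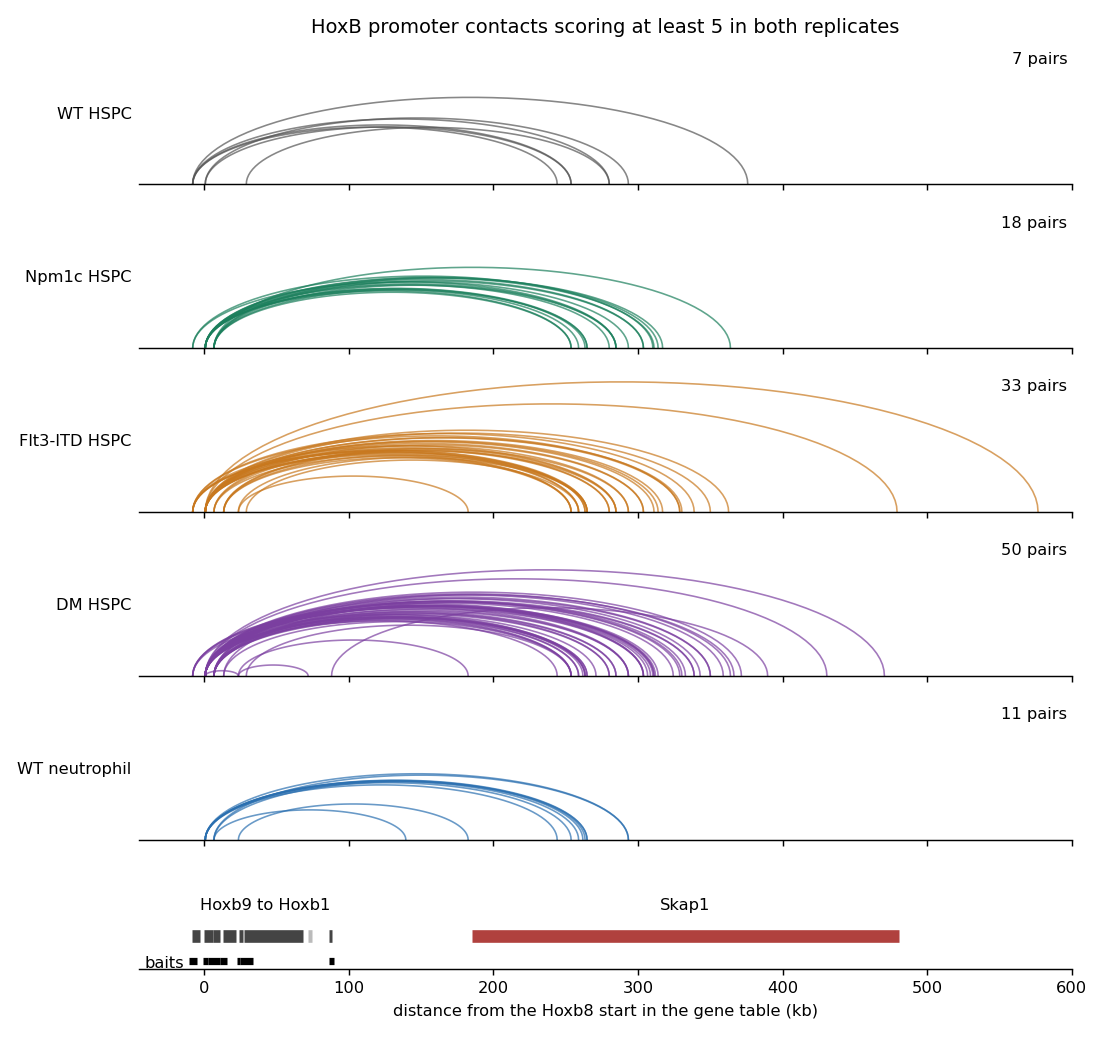
HoxB pairs with a deposited score of at least 5 in both replicates, drawn as arcs for each group against distance in kb from the start of Hoxb8 in the gene table, with genes (dark bars, grey for Hoxb2, red for Skap1) and baits (black) below; arc height is proportional to span. Nearly all arcs land in Skap1, with 7 arcs for WT HSPCs, 18 for Npm1c, 33 for Flt3-ITD and 50 for DM. The farthest neutrophil contact is with a fragment that ends 116 kb into Skap1, and the near part described below was cut there.

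The baits shared their landing fragments. The 72 pairs had 39 distinct other ends, of which 16 were contacted by at least 2 HoxB baits. Hoxb9 shared 12 of its 14 other ends with the Hoxb8 bait, Hoxb8/Hoxb7 11 of 13, Hoxb6 4 of 5, and Hoxb5/Hoxb3 3 of 3. Hoxb5 shared 1 of 4, and the single fragment of Hoxb1 was not shared. The most shared fragments were chr11:96529732-96536732, 68.7 kb into Skap1, and chr11:96543059-96545470, 79.7 kb into it, with 5 baits each. The baits lie close together on 1 chromosome, and those of Hoxb8, Hoxb8/Hoxb7 and Hoxb6 adjoin, so they were not counted as independent of each other.

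The measure is the deposited interaction score of each pair in each library, which is never negative and whose scale is not stated. Every pair in the HSPC list reached 5 in both libraries of 1 HSPC group or more. A group that brings in many pairs therefore looks high over the list by construction, and this holds for every count that follows. Likewise, where 1 group or a few listed a pair, that these lie above the rest follows in part from the listing, and the order of the libraries is given as a description. In WT, 7 of the 72 HoxB pairs (9.72%) scored at least 5 in both replicates, against 34.9% of all listed pairs. In Npm1c it was 18 (25.0% against 41.8%), in Flt3-ITD 33 (45.8% against 51.2%), and in DM 50 (69.4% against 48.8%). The HoxB share was thus below that of the whole list in 3 groups and above it in DM. Pairs that passed in DM alone numbered 29 of 72 (40.3%), against 18.5% of all pairs.

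**Figure D2:**
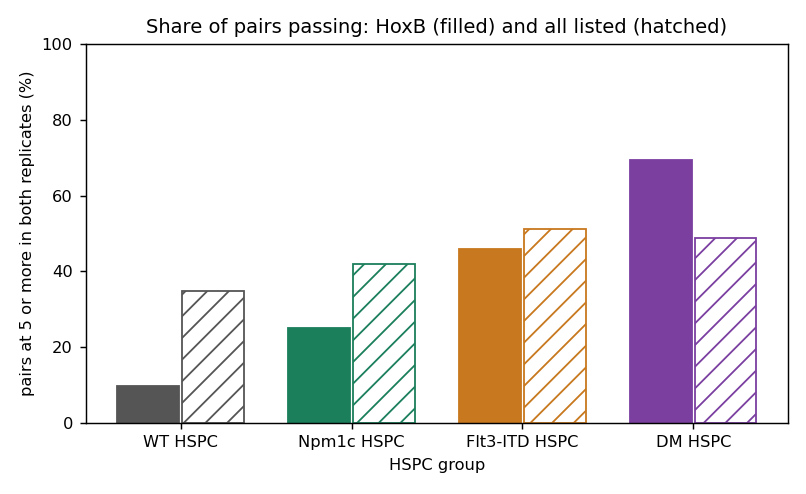
Percentage of pairs scoring at least 5 in both replicates in each HSPC group, for the 72 HoxB pairs (filled) and all 88624 listed pairs (hatched). The HoxB share goes from 9.72% in WT to 69.4% in DM, while the share of all pairs lies between 34.9% and 51.2%.

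The single libraries showed how uneven the WT replicates were. WT replicate 1 had 34 HoxB pairs at 5 or more and WT replicate 2 had 12. The Npm1c libraries had 30 and 34, the Flt3-ITD libraries 45 and 49, and the DM libraries 56 and 58. WT replicate 1 thus matched the Npm1c libraries by this count, and WT replicate 2 was lower than every other library. The mean of log2(score + 1) over the 72 pairs was 2.28 ± 0.19 (SD, n = 2) in WT and 2.49 ± 0.05 in Npm1c. It was 2.70 ± 0.01 in Flt3-ITD and 2.82 ± 0.01 in DM. By library it was 2.41 and 2.14 in WT, 2.45 and 2.53 in Npm1c, 2.70 and 2.71 in Flt3-ITD, and 2.83 and 2.81 in DM. The groups did not overlap, although WT replicate 1 and Npm1c replicate 1 lay close together. Of the 72 pairs, 50 passed in DM and 7 in WT, so this order follows in part from the listing. How many other sets of pairs separate in this way was not counted. Over all listed pairs the group means were 2.43, 2.57, 2.71 and 2.62 in the same order.

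The difference of DM from WT on this log2 scale was 0.55, against 0.19 over all pairs. Restricted to the 38 HoxB pairs that Npm1c or Flt3-ITD had brought into the list, so that neither DM nor WT scores chose them, it was 0.51, against 0.13 over all such pairs. Flt3-ITD exceeded WT by 0.43 (0.40 over its 54 pairs chosen without these groups) and Npm1c exceeded WT by 0.21 (0.27 over 64). All pairs gave 0.28 and 0.14. The Npm1c value rested on the WT replicate used: against WT replicate 2 alone it was 0.35, and against WT replicate 1 alone 0.078. DM exceeded Flt3-ITD by 0.12 over all 72 pairs and by 0.01 over the 23 pairs that the other groups had brought in, against -0.09 over all pairs and -0.16 over all those so chosen. DM exceeded Npm1c by 0.33, or by 0.16 over 38 such pairs, against 0.05 and -0.02 over all. These are descriptions with no test, and the comparisons share their WT or DM libraries.

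No single HoxB pair passed the test in any comparison. The test was limma on log2(score + 1) over all 88421 autosomal and X-linked pairs, two-sided, with Benjamini-Hochberg adjusted p under 0.05 as a call. For Npm1c against WT, 0 of 72 HoxB pairs were called where 0.31% of all pairs were, and 9 had an unadjusted p under 0.05 (12.5% of all pairs). For Flt3-ITD against WT it was 0 (0.568% of all), with 9 at the unadjusted level (14.2%). For DM against WT it was 0 (0.576%), with 11 unadjusted (19.5%), of which 9 were higher in DM (13.5% of all pairs were so). These unadjusted shares lie near or below those of all pairs.

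The comparisons among mutants gave no HoxB pair either. DM against Npm1c gave 0 calls (0.561% of all pairs) and 6 unadjusted (17.7%). DM against Flt3-ITD gave 0 (0.458%) and 5 unadjusted (12%). The interaction, the gap between DM and the added effects of the 2 mutations alone, gave 0 (0.564%) and 5 unadjusted (14.4%). The average effect of Npm1c over both Flt3 genotypes gave 0 (0.37%) and 8 unadjusted (10.8%), and that of Flt3-ITD over both Npm1 genotypes gave 0 (0.783%) and 8 unadjusted (18.2%). With 2 libraries a group, changes of moderate size were not called in simulated data, and large ones were recovered least often for the interaction, so these zeros do not show that the contacts were alike.

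Hoxb8, long known for its power to immortalise myeloid progenitors, had the most contacts. Of its 32 pairs, 2 scored at least 5 in both WT replicates, 10 in Npm1c and 17 in Flt3-ITD, and 28 did in DM. These 2 were also the only HoxB pairs at that level in all 4 HSPC groups (2.78% of 72, against 10.2% of all pairs). The first was with the fragment 68.7 kb into Skap1. It scored 10.3 and 5.35 in WT, 7.63 and 9.38 in Npm1c, 10.6 and 8.0 in Flt3-ITD, and 8.84 and 8.77 in DM. The groups overlapped fully. The second, with chr11:96564768-96580912, scored 7.19 and 5.61 in WT, 13.6 and 8.25 in Npm1c, 6.29 and 10.5 in Flt3-ITD, and 6.06 and 12.2 in DM. Here too the groups overlapped, and replicates of the mutant groups differed by several units.

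The highest mean for Hoxb8 in any group was in DM, 11.9 ± 3.04 (n = 2), with chr11:96580913-96585547. That pair scored 4.77 and 1.39 in WT, 9.33 and 7.24 in Npm1c, 8.80 and 6.80 in Flt3-ITD, and 14.0 and 9.71 in DM. The WT libraries lay below all 6 mutant libraries. This pair was listed through the 3 mutant groups and not through WT, so that order follows in part from the listing. The difference of DM from WT was 1.77 on the log2(score + 1) scale (SE 0.46), with an adjusted p of 0.115 by limma, so it did not pass. In Npm1c the highest Hoxb8 mean was with chr11:96563750-96564767, at 11.04 ± 0.76 (n = 2), from 11.6 and 10.5. This fragment gave 4.11 and 8.21 in WT, 10.2 and 10.0 in Flt3-ITD, and 9.55 and 12.6 in DM. Again WT lay below every mutant library, and again the pair had been listed through mutant groups alone. In Flt3-ITD the highest mean, 10.1 ± 2.11 (n = 2), was with the fragment 79.7 kb into Skap1.

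**Figure D3:**
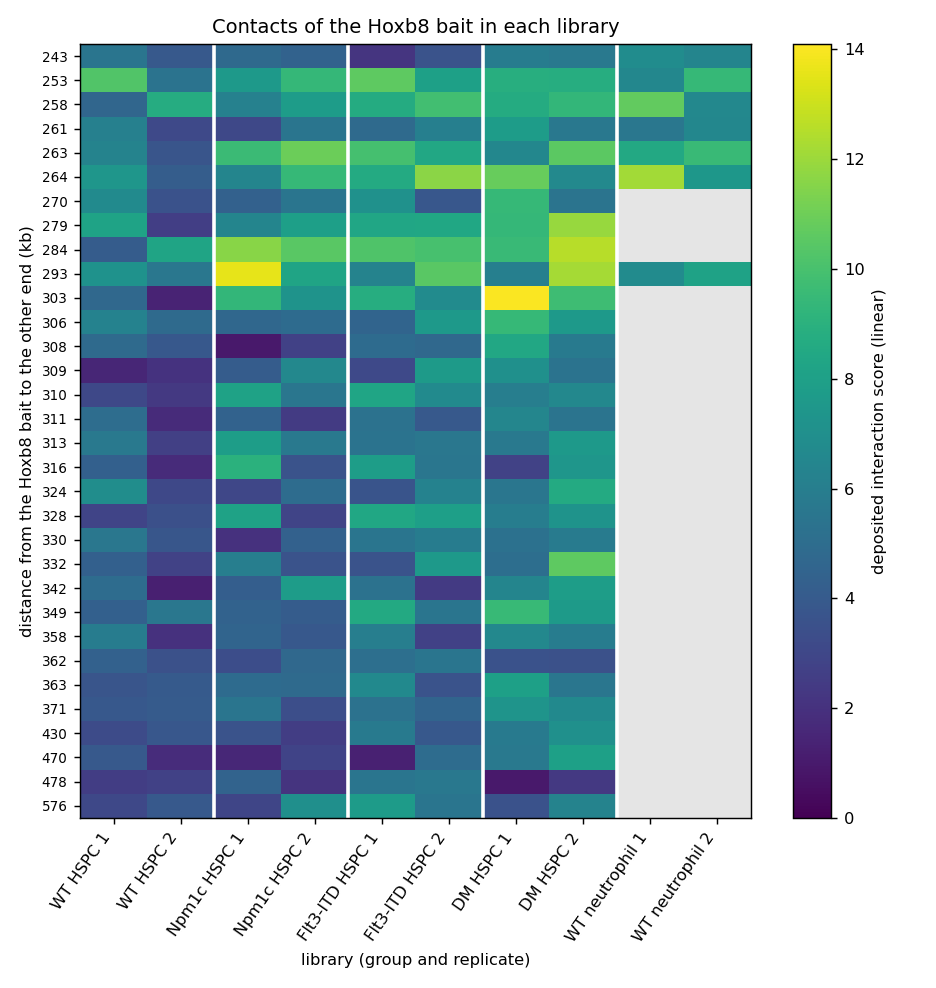
Deposited scores (colour, linear scale) of the 32 pairs of the Hoxb8 bait in each of the 10 libraries, with rows ordered by distance in kb from the bait; grey marks pairs not in the neutrophil list. The rows at 253 to 303 kb hold most of the high scores, and in most rows below them the DM columns are brighter than the WT columns. None of the rows beyond 303 kb was listed through WT and many were listed through DM alone, so this follows in part from the listing.

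The Hoxb8/Hoxb7 bait holds the later part of Hoxb8 and all of Hoxb7. None of its 13 pairs scored at least 5 in both WT replicates, while 6 did in Npm1c, 3 did in Flt3-ITD and 11 did in DM. Its highest mean in DM, 9.63 ± 1.52 (n = 2), and in Npm1c, 8.23 ± 0.52, were with chr11:96563750-96564767, also the fragment of the highest Npm1c mean of Hoxb8. That pair scored 4.48 and 4.33 in WT, 8.60 and 7.87 in Npm1c, 9.73 and 4.86 in Flt3-ITD, and 10.7 and 8.56 in DM. The 2 WT libraries lay below all the others, but Npm1c and DM had listed the pair, so this follows in part from the listing. In Flt3-ITD the highest mean of this bait was 9.52 ± 0.19, with chr11:96580913-96585547. In WT it was 5.83 ± 4.11, with chr11:96642484-96644288, from 8.74 and 2.93, so that contact was high in 1 replicate only.

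Hoxb9 differed from the Hoxb8 and Hoxb8/Hoxb7 baits in where its pairs passed, with more in Flt3-ITD than in DM, as Hoxb6 also had. Of 14 pairs, 4 scored at least 5 in both WT replicates, 2 in Npm1c and 6 in Flt3-ITD, and 4 did in DM. Its highest WT mean was with chr11:96522802-96524374, 59.0 kb into Skap1. This pair scored 7.46 and 5.60 in WT, 1.88 and 4.30 in Npm1c, 4.75 and 4.20 in Flt3-ITD, and 3.89 and 2.07 in DM. WT alone passed 5, which is what listed the pair, so its place above the mutants follows from the listing. In the other 3 groups its highest mean was with chr11:96563750-96564767, at 6.12 ± 1.13 in Npm1c and 7.19 ± 2.09 in Flt3-ITD, and at 7.43 ± 5.13 in DM (n = 2 each). The difference between this bait and the Hoxb8 bait was not tested.

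Hoxb6 and the baits beyond it had few pairs. None of the 5 Hoxb6 pairs scored at least 5 in both replicates of WT or Npm1c, against 4 in Flt3-ITD and 2 in DM. Its highest Flt3-ITD mean was 7.66 ± 2.68, with chr11:96563750-96564767, from 9.55 and 5.76. Its highest DM mean was 8.35 ± 0.01, with chr11:96617013-96619580, where the other 6 libraries ranged from 1.21 to 5.44. DM alone passed 5 in both replicates, which is what listed that pair. The highest WT mean of Hoxb6 was 4.76 ± 1.27, with the fragment 68.7 kb into Skap1. Its highest Npm1c mean was 5.25 ± 0.37, with the one 79.7 kb into Skap1. The Hoxb5/Hoxb3 bait had 1 of 3 pairs at that level in each group except Npm1c, where it had 0. Its highest mean in the mutants was with the fragment 68.7 kb into Skap1, 4.85 ± 0.71 in Npm1c and 5.41 ± 2.45 in Flt3-ITD, and it was 7.53 ± 1.23 in DM. In WT it was 5.30 ± 0.14, with chr11:96555434-96563749.

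Hoxb5, known as a marker of long-term blood stem cells, had its strongest contact elsewhere than the others. In every HSPC group its highest mean was with chr11:96457711-96466385, the fragment that spans the cluster-facing end of Skap1, 159 kb away. It scored 7.22 and 4.36 in WT, 4.17 and 8.20 in Npm1c, 7.27 and 8.32 in Flt3-ITD, and 13.1 and 9.57 in DM. The DM libraries lay above all other HSPC libraries, but Flt3-ITD and DM had listed the pair, so this follows in part from the listing. No other HoxB bait had a listed pair with this fragment. The one pair of Hoxb1 was with chr11:96656112-96682081, 301 kb away. It scored 0.31 and 2.63 in WT, 1.34 and 3.18 in Npm1c, 1.07 and 1.32 in Flt3-ITD, and 5.14 and 5.19 in DM. DM alone passed 5, just above the threshold, which is what listed the pair.

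The baits were then tested as units, on the mean of log2(score + 1) over their pairs. A pair counted only when it owed its listing to some group other than those compared, and a bait needed at least 3 such pairs. For DM against WT, 0 of the 4 HoxB baits with enough pairs were called by limma (0% of all 5866 baits), and 2 had an unadjusted p under 0.05 (17.1% of all). The Hoxb8/Hoxb7 bait was 0.70 higher in DM (SE 0.21, 7 pairs, adjusted p = 0.19 by limma) and the Hoxb8 bait 0.56 higher (SE 0.23, 17 pairs, adjusted p = 0.273). Hoxb6 differed by 0.33 (SE 0.21) and Hoxb9 by 0.20 (SE 0.22). Across the alternative settings that kept all libraries, the lowest adjusted p of a HoxB bait by limma ranged from 0.0597 to 0.412. The 0.0597 came with all listed pairs, a setting without the rule on how a pair was listed. With that rule kept, the lowest was 0.106, with at least 10 pairs a bait. Npm1c against WT gave 0 calls among 5 baits (0% of all) and 0 unadjusted (5.87%), and Flt3-ITD against WT 0 among 4 (0% of all) and 0 unadjusted (16.5%). DM gave 0 calls against Npm1c among 4 baits (0% of all, 0 unadjusted against 13.1%) and 0 against Flt3-ITD among 3 (0% of all, 0 unadjusted against 13.9%).

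**Figure D4:**
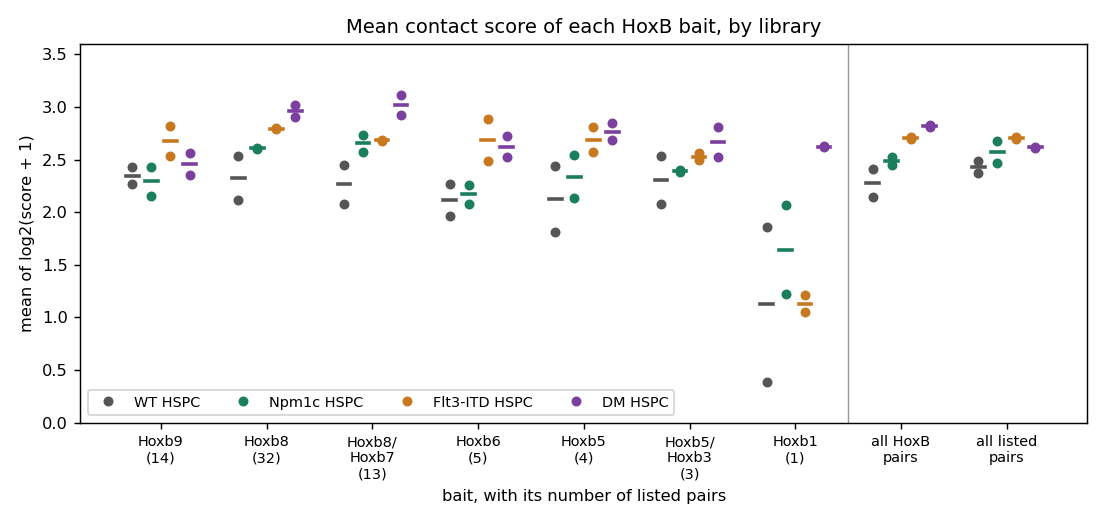
Mean of log2(score + 1) over all listed pairs of each HoxB bait, in each HSPC library (dots) with the group mean (bars), and over all HoxB and all listed pairs (right); the number of pairs stands under each bait. DM is the highest group for Hoxb8 (2.96), Hoxb8/Hoxb7 (3.02), Hoxb5 (2.77), Hoxb5/Hoxb3 (2.67) and Hoxb1 (2.62). Flt3-ITD is the highest for Hoxb9 (2.68) and Hoxb6 (2.69), and over all listed pairs Flt3-ITD (2.71) lies above DM (2.62). Pairs were listed by score, so these orders follow in part from the listing.

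The effects averaged over the other genotype use every HSPC group. All pairs of a bait entered there, so their selection by score remains in these values. The average effect of Flt3-ITD was called for 1 of 6 HoxB baits, Hoxb6, where 15.3% of all 7678 baits were called, so 1 of 6 is near the background. The Hoxb6 bait mean was 2.26 and 1.96 in WT, 2.08 and 2.26 in Npm1c, 2.89 and 2.49 in Flt3-ITD, and 2.72 and 2.52 in DM. The 4 libraries with Flt3-ITD lay above the 4 without it, but all 5 pairs had been listed through Flt3-ITD or DM, so this order follows in part from the listing. The effect was 0.51 (SE 0.15, adjusted p = 0.0455 by limma), and it is not independent of that selection. It lost its call under most alternatives, among them quantile normalisation (0.33, adjusted p = 0.15) and leaving out WT replicate 2 (0.44, adjusted p = 0.126). At the unadjusted level 4 of 6 baits passed (33.3% of all baits). The average effect of Npm1c gave 0 calls among 6 (0.104% of all) and 1 unadjusted (15.3%), and the interaction 0 among 6 (3.36%) and 0 unadjusted (23.4%).

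Neutrophils, mature cells in which HoxB genes are normally quiet, had some of the contacts listed in HSPCs. Their 11 pairs lay on 3 baits, 7 on Hoxb8, 3 on Hoxb8/Hoxb7 and 1 on Hoxb5. The neutrophil list held 0 pairs of HoxA baits, 1 of HoxC and 2 of HoxD, whose HSPC pairs numbered 52, 74 and 22. Of the 11 HoxB pairs, 10 were also in the HSPC list, as were 14093 of all 25622 neutrophil pairs. Seen from the HSPC list, these were 10 of its 72 HoxB pairs and 14093 of all its 88624 pairs. By that share HoxB was not above the whole list. Of these 10, 2 scored at least 5 in both WT HSPC replicates, and the other 8 were in the HSPC list through mutant groups. Their highest mean was for Hoxb8 with the fragment 79.7 kb into Skap1, which scored 12.1 and 7.46 in neutrophils and 7.38 and 4.14 in WT HSPCs. The Hoxb5 contact with the end of Skap1 scored 6.28 and 6.76 in neutrophils, within the range of the WT HSPC libraries. The 1 pair listed in neutrophils alone joined the Hoxb8/Hoxb7 bait to chr11:96418356-96419576, between the cluster and Skap1, with scores of 5.56 and 6.07.

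All 10 neutrophil pairs that ended in Skap1 lay in its first 116 kb, up to position 96580912. Split there, a boundary chosen after the values were seen, the near part had 34 of the 69 HSPC pairs and the far part 35. In the near part 6 pairs scored at least 5 in both replicates in WT, 11 in Npm1c and 20 in Flt3-ITD, and 22 did in DM. In the far part it was 1, 7, 12 and 26. For the Hoxb8 bait alone the near part gave 2, 7, 7 and 10 of 10 pairs, and the far part 0, 3, 9 and 18 of 21. The boundary is the end of the farthest neutrophil pair, so neutrophils have 0 pairs in the far part by construction, and the listing rule favours DM in both parts.

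Over the 10 shared pairs neutrophils exceeded WT HSPCs by 0.46 on the log2 scale, against 0.34 over all shared pairs. Every pair in the neutrophil list scores at least 5 in neutrophils, so the excess follows in part from the listing. It was 0.65 without WT HSPC replicate 1 and 0.26 without WT HSPC replicate 2. In limma over the 14051 shared pairs, 0 of 10 HoxB pairs were called (0.206% of all) and 1 had an unadjusted p under 0.05 (19.9%). No HoxB bait had 3 pairs reaching 5 in neutrophils and WT HSPCs alike, so none could be tested as a unit by the rule used here. With pairs counted whether or not they reached 5 in WT HSPCs, 1 HoxB bait could be tested and 0 were called (261 of all 1539 baits were), with a difference of 0.41 (adjusted p = 0.189 by limma). With a minimum of 1 pair it was 0.13 (adjusted p = 0.87, 3 of 3049 baits called), and neither passed an unadjusted p of 0.05.

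The other Hox clusters and the genes that mark blood cell types were counted the same way. At 5 or more in both replicates, HoxC had 13 pairs in WT, 25 in Npm1c and 41 in Flt3-ITD, and it had 61 in DM, an order like that of HoxB. HoxA had 9, 24, 15 and 31, and HoxD 1, 10, 13 and 4. The 10 neutrophil marker genes, 8 of them with a bait, had 23, 32, 36 and 53 of 93 pairs, and the 6 erythroid genes, 5 with a bait, had 26, 26, 21 and 12 of 46. For the average effect of Flt3-ITD, limma called 3 of 6 neutrophil marker baits higher (Ly6g, Mmp8 and Mmp8/Mmp27). Over all 7678 baits the share called was 15.3%, and the baits Mmp8 and Mmp8/Mmp27 hold ends of the same gene. Also called higher were 2 of 5 HSPC marker baits (Meis1 and Runx1), 2 of 6 HoxC baits (Hoxc11 and Hoxc8) and 1 of 5 HoxA baits (Evx1). No B cell, T and NK cell or macrophage bait was called. All pairs of a bait entered, so their selection by score remains in these calls. At 5 or more in both replicates, the HSPC marker genes had 8, 20, 28 and 24 of 48 pairs. The T and NK cell genes had 23, 30, 44 and 39 of 69. The macrophage genes had 4, 2, 6 and 6 of 12, and the B cell genes 1, 2, 3 and 6 of 9. The neutrophil and B cell counts thus had the same order over the groups as those of HoxB, and the other cell type lists did not. The erythroid counts were lowest in DM. The part of the cell mix in the HoxB values was not tested. These are contact scores, from which no level of expression can be read.

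Among 2265 gene-bearing baits with at least 10 pairs, the 5 whose mean over the 8 HSPC libraries followed that of the HoxB pairs most closely were Xxylt1, Snx18, Cemip, Cd200r1 and Krt28. Their Pearson correlations ranged from 0.98 to 0.99, the median over all such baits was 0.40, and 21.0% were above 0.8. The 8 points share their libraries with every bait, so the correlations are given as a description. Among the HoxB baits themselves, Hoxb8 correlated at 0.92 with Hoxb8/Hoxb7 and at 0.45 with Hoxb9 over the 8 libraries.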

How the data were processed

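Promoter-capture Hi-C was measured in 8 HSPC and 2 neutrophil libraries. Per the labels' protocols, cells were fixed in 1% formaldehyde for 10 minutes, chromatin was cut with HindIII, and 39684 probes captured 22047 promoters. Per the submitters' processing notes the build is mm10. The interaction caller and the meaning of the score are not given in the sources used here. The deposited values are interaction scores, 1 per library and pair, with no counts, so depth is unknown and precision is known only from how far replicates differ.

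Genes were placed on baits through the RefSeq gene table of GRCm38.p6, by either end. Pairs and bait means were tested as log2(score + 1) with limma 3.58.1 in R 4.3.3, two-sided, Benjamini-Hochberg at 0.05 over all pairs or baits, after tests on simulated data. Bait tests used baits with at least 3 pairs. Tests covered autosomes and X. The members and lists were chosen with earlier results of these data known. Pairs named are those with the highest group mean for each bait, those called, and those at 5 or more in all 4 HSPC groups, and the others named in the text (the contacts outside Skap1, the neutrophil pairs) were chosen after their values were seen. Replicates are biological per the labels' protocols. Alternatives were the pseudocount, quantile normalisation, filters, the minimum of pairs, the median, the score threshold, a replicate block and leaving out each library. The bait calls of the erythroid list are not reported here.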

Additional observations from a re-analysis of the deposited data

How the results depend on the processing

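The count of called HoxB pairs was 0 under all 93 alternatives run, and the mean differences over HoxB pairs kept their sign in 78 of 80. The call for the average effect of Flt3-ITD on HoxB baits did not hold. The count was 0 with at least 1 pair a bait, quantile normalisation, the median or the replicate block. With at least 10 pairs it was 2, but Hoxb6, with its 5 pairs, could not enter there, so these were other baits. The count also changed whichever library was left out. The replicate numbers did not pair the libraries (correlations of their deviations from -0.01 to 0.06), and the replicate block changed no other call.

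At a threshold of 7, WT kept 0 HoxB pairs, Npm1c 6, Flt3-ITD 9, DM 14 and neutrophils 3. With the mean of the replicates at 5 or more they numbered 20 in WT and 28 in Npm1c, and with 1 replicate alone 12 to 34 in WT and 30 to 34 in Npm1c. Quantile normalisation reduced the mean difference from WT to 0.062 for Npm1c, 0.15 for Flt3-ITD and 0.35 for DM, gave 0.29 for DM against Npm1c, 0.20 for DM against Flt3-ITD, 0.22 for the average effect of Flt3-ITD and 0.14 for neutrophils, and turned the interaction from -0.09 to 0.14. Leaving out 1 library gave -0.23 to 0.040 for the interaction, both without a WT library. Pairs brought in by other groups, a setting added after seeing the data, gave 0.16 for DM against Npm1c and 0.012 for DM against Flt3-ITD. The cause of these shifts was not tested. No caller output or counts were used here, so counting error is unknown.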

Other observations

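Within the cluster, 5 further baits hold no end of a member. Among them are the bait of Mir196a-1, the microRNA gene between Hoxb9 and Hoxb13, and the bait of Mir10a. Mir10a lies near Hoxb4, a gene not among the members. The Mir10a bait and the bait chr11:96321828-96327276 lie within the span of the member Hoxb3. Together the 5 baits had 12 pairs, of which 11 ended in Skap1 as well. WT had 0 of them at 5 or more in both replicates, Npm1c 2, Flt3-ITD 3 and DM 8. The mean score over the 12 pairs was 3.07 and 2.69 in the WT libraries, 4.32 and 3.32 in Npm1c, 3.63 and 3.61 in Flt3-ITD, and 6.39 and 5.15 in DM. Of the 12 pairs, 7 had been listed through DM alone, so the higher DM values follow in part from the listing. The Mir196a-1 bait alone had 6 pairs, all in Skap1.

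Baits beyond Skap1 reached back across it to the Hoxb8 bait fragment, which was the one HoxB bait fragment listed as another bait's other end from outside the cluster. Cbx1, a heterochromatin protein gene 509 kb away, scored 5.17 and 7.32 in WT, 6.26 and 8.01 in Npm1c, 3.35 and 10.8 in Flt3-ITD, and 7.75 and 4.89 in DM. The groups overlapped. Copz2, 571 kb away, scored 5.47 and 6.03 in WT and 2.38 to 4.91 in the 6 mutant libraries. WT alone passed 5, which is what listed the pair. Snx11, 498 kb away, passed 5 in both replicates of Flt3-ITD alone, with 5.39 and 5.48. These pairs were named after their values were seen, and none appears in the neutrophil list.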
